A study of Mus musculus with 4 samples.

Results

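The genes described here are 10 transcription factors that pattern the diencephalon and its borders: Gbx2, Tcf7l2, Barhl1, Barhl2, Lhx9, Shox2, Otx1, Otx2, Irx1 and Irx2. They were chosen by name, and every probe set that the platform annotation assigns to exactly 1 of these symbols was taken, which gave 18 of the 45037 probe sets of the array that are not controls. Affymetrix arrays measured total RNA of the whole brain of mouse embryos at embryonic day 14.5, whose strain is given as a mixture of 129SvJ and C57Bl/6J. The 2 control arrays came from embryos with the genotype Sox4 flox/flox; Sox11 flox/flox, and in the double-knockout group, also 2 arrays, Brn4::Cre was present on top of these floxed alleles. Both groups therefore share the floxed alleles and differ in the Cre transgene, whose driver is named for Brn4 (Pou3f4). Embryos with the transgene and without floxed alleles were not analysed here, so an effect of Cre itself and one of the deletion cannot be told apart. The title of the series speaks of the spinal cord, whereas the tissue label of each array is the brain. The labels speak of biological replicates without saying whether an array held 1 embryo or a pool, so the spread between arrays may be partly technical. Each p-value rests on that spread of its probe set, moderated by the spread of other probe sets of like signal.

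The diencephalon lies between the cerebral hemispheres and the midbrain and forms, from front to back, the prethalamus, the thalamus with the habenula above it, and the pretectum. Transcription factors set up these territories in progenitors and are then kept on in the neurons that leave the cell cycle. Sox4 and Sox11 are SoxC factors, which act mainly in such newly formed neurons. Gbx2 is a homeodomain factor of thalamic neurons, Tcf7l2 an HMG-box factor that carries Wnt signals to DNA and marks thalamus and habenula, and Lhx9 and Shox2 are homeodomain factors of thalamic and midbrain neurons. Barhl1 and Barhl2 are BarH-like homeodomain factors, Otx1 and Otx2 establish forebrain and midbrain, and Irx1 and Irx2 are Iroquois factors of the caudal diencephalon, midbrain and hindbrain. Most of these genes are also on elsewhere, such as Otx1 in cortex, Otx2 in choroid plexus and Barhl1 in cerebellar granule cell precursors, so a whole-brain signal is a sum over regions.

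Fell, rose and passed refer here to an adjusted p under 0.05 in limma, fitted over 27022 probe sets with log2(signal + 16) as the scale. At the targeted genes, all 6 Sox11 probe sets fell, by log2 changes of -3.18 to -1.19 (-1.38 at the brightest, 1436790_a_at). Of 6 tested Sox4 probe sets, 4 fell, by log2 changes of -2.69 to -1.09, and 1, 1419157_at, rose by 1.83. The brightest, 1433575_at, did not pass (log2 change 0.09). Which of the Sox4 probe sets lie in the deleted part is not known here. Median signals of the 4 arrays were 262.0 to 286.7, and the small number of arrays limits the precision of all values.

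Transcripts of 9 of the 10 factors fell in the double knockout, and Otx1 did not pass the test. Among the genes that passed, each read at its brightest probe set, the falls ranged from a log2 change of -1.12 at Gbx2 to -0.51 at Otx2, that is 2.17-fold to 1.42-fold. Over all 12489 genes tested, 11.0% fell, and the median log2 change was 0.06, against a median of -0.86 over the 10 factors. Counted by probe set, 17 of 18 fell, where 11.6% of all tested probe sets did. At 1 of the 17, Barhl1 1418811_at, both knockout signals were under the filter on low values, so that it was tested through its controls, and without it 16 of 17 fell. Both knockout arrays lay below both control arrays at the 17 probe sets that fell, an arrangement that 31.6% of all tested probe sets showed. None of the 10 genes rose in limma, also at an unadjusted p under 0.05 (0 genes), while 16.3% of all genes rose. The 10 genes were picked with earlier results of these arrays known, so these counts describe them and are no independent evidence of a direction. In RNA of a whole brain, fewer cells of a type and less RNA per cell cannot be told apart.

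**Figure D1:**
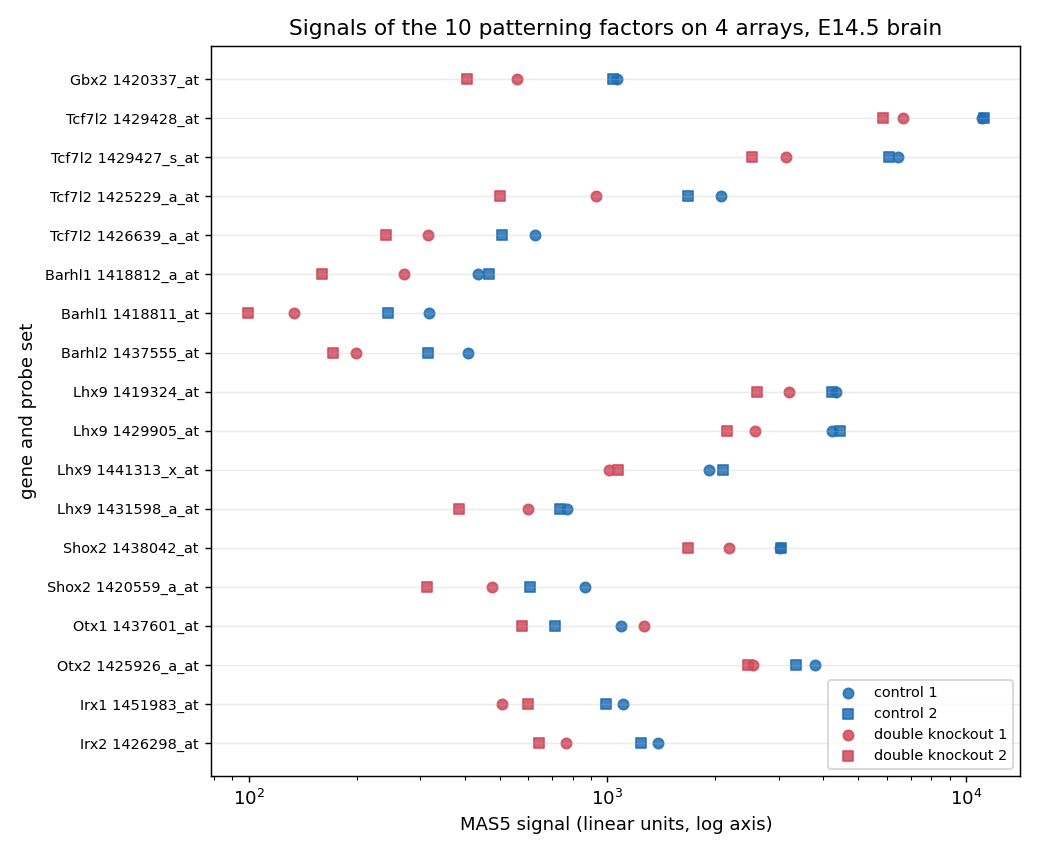
MAS5 signal (x axis, linear units on a log axis) of the 18 probe sets of the 10 factors (y axis), with a point for each of the 4 arrays: blue for control, red for double knockout, circles for replicate 1 and squares for replicate 2. Red points lie left of blue points at 17 probe sets, and at Otx1 they span the blue ones, from 579.2 to 1268 against 715.2 to 1089.

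With all 4 arrays Gbx2 had the largest fall among the 10 genes read at their brightest probe sets. Its probe set 1420337_at read 1065 and 1037 in controls and 557.9 and 406.9 in knockouts. The controls lay close together, the knockouts were farther apart, and the mean signal was 45.9% of that of controls (1051 ± 19.7 against 482.4 ± 107, SD, n = 2 each). The log2 change was -1.12 ± 0.17 (SE; 95% interval -1.49 to -0.74; limma adjusted p = 0.00139). With each array left out in turn the change was -1.34 to -0.89 and passed each time. Its place as the largest fall did not hold throughout, since the Barhl1 change was larger without control 1 (both -1.10 when rounded) and without knockout 1 (-1.41 against -1.34), and the Irx1 change without knockout 2 (-1.02 against -0.89).

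Tcf7l2, the Wnt effector, fell at each of its 4 probe sets. The brightest, 1429428_at, read 11083 and 11196 in controls and 6667 and 5847 in knockouts, a log2 change of -0.83 ± 0.08 (SE; 95% interval -1.02 to -0.65; limma adjusted p = 0.000138). Neither knockout array came near the controls, and the knockout mean was 56.2% of the control mean. The other probe sets fell by 1.15 at 1429427_s_at, 1.42 at 1425229_a_at and 0.99 at 1426639_a_at on the log2 scale. At 1425229_a_at, where the fall was largest, the controls read 2067 and 1673 and the knockouts 930.0 and 501.8. The intervals of the brightest (-1.02 to -0.65) and of 1425229_a_at (-1.94 to -0.90) share a stretch, and whether these probe sets differ in their change was not tested. The dimmest, 1426639_a_at, did not pass without knockout 2 (log2 change -0.81, limma adjusted p = 0.0642), while the other Tcf7l2 probe sets passed with any 1 array left out.

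Lhx9, a LIM-homeodomain factor, fell at all 4 of its probe sets. The brightest, 1419324_at, read 4340 and 4240 in controls and 3215 and 2603 in knockouts, and the log2 change was -0.57 ± 0.11 (SE; 95% interval -0.81 to -0.32; limma adjusted p = 0.00531). Signals at 1429905_at were 4231 and 4436 against 2581 and 2155, and at 1441313_x_at 1921 and 2105 against 1010 and 1068. The groups were apart at both, and the falls were larger than at the brightest probe set, with log2 changes of -0.87 and -0.94. The fourth, 1431598_a_at, changed by -0.63 with a limma adjusted p = 0.0446 and did not pass without control 1 (-0.60) or without knockout 2 (-0.33). Its knockout arrays were 598.6 and 386.6, the first of them close to the controls at 770.6 and 738.6. The suffix x of 1441313_x_at and the s of the Tcf7l2 probe set 1429427_s_at mark probe sets whose probes can also detect other transcripts.

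Shox2, a paired-type homeodomain factor of caudal thalamic and midbrain neurons, fell at both of its probe sets. The brighter, 1438042_at, read 3018 and 3051 in controls and 2185 and 1679 in knockouts, a mean of 63.7% of controls. Its log2 change was -0.66 ± 0.13 (SE; 95% interval -0.94 to -0.37; limma adjusted p = 0.00504). At 1420559_a_at the signals were 866.0 and 609.0 against 476.1 and 314.0, and the change was -0.88. This dimmer probe set lost its call without control 1 (-0.63) and without knockout 2 (-0.59), whereas the brighter one passed with any 1 array left out (-0.85 to -0.47).

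Upstream sequence is shown for 3 thalamic factors. At the brightest probe sets Gbx2 had the largest fall over all 4 arrays and Tcf7l2 the smallest limma adjusted p. Lhx9 had the most matches to a SOX core of 6 letters, so the matches in its window follow from how it was picked. RefSeq promoters of the build GRCm38.p6, from 250 bases before to 50 after an annotated start, were at hand for 8 of the 10 genes, 13 promoters in all. Lower case letters are unmatched bases, and capitals mark the SOX cores ACAAAG and ACAAT or their reverse complements CTTTGT and ATTGT, which can share bases with each other. Each is printed 5′ to 3′ on the strand of its gene.
Gbx2, chr1:89931127-89931426, minus strand: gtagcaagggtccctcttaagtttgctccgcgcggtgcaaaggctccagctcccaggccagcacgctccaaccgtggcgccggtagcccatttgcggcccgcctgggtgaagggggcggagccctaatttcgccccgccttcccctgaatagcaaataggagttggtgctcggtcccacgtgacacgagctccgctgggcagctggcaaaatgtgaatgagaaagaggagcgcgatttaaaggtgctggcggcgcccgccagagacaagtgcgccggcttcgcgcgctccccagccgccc
Tcf7l2, chr19:55741560-55741859, plus strand: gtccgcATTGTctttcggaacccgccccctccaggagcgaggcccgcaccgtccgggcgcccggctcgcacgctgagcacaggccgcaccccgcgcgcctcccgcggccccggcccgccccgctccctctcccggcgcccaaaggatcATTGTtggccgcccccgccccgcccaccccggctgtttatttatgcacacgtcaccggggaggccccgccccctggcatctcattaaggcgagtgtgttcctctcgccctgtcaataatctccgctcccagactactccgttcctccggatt
Lhx9, chr1:138842395-138842694, minus strand: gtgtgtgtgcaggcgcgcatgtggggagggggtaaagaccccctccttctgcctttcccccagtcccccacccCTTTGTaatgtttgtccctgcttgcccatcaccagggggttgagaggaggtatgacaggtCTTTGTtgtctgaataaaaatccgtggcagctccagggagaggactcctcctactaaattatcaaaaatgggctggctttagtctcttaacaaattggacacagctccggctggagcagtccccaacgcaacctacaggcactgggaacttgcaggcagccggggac
The Gbx2 window held neither core. The printed Tcf7l2 window held ATTGT at -244 and -102 from the start, and the Lhx9 window CTTTGT at -177 and -117, each position being that of the first base. Another Tcf7l2 promoter, chr19:55895071-55895370, is not printed and held 1 match, CTTTGT at -14. Over all 13 promoters, 9 held at least 1 of both cores, belonging to 6 genes, against 42.9% of the 32851 promoters of the table. ACAAAG or its reverse complement was in 3 of the 13 (18.7% of all promoters) and ACAAT or its reverse complement in 6 (31.0%). Several promoters of a gene can overlap, and a match is a string of letters and no measured binding site.

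The BarH-like factors Barhl1 and Barhl2 also fell, but each lost its call with at least 1 array left out. Barhl1 at its brighter probe set, 1418812_a_at, read 434.7 and 466.1 in controls and 270.7 and 159.5 in knockouts. Both knockout values were below both controls, by a log2 change of -1.06 ± 0.25 (SE; 95% interval -1.61 to -0.50; limma adjusted p = 0.0137). The other, 1418811_at, read 317.2 and 243.7 against 133.2 and 99.6, with a change of -1.16. Without knockout 2 the Barhl1 changes were -0.70 and -0.98, and neither passed. Both knockout signals of 1418811_at were under the signal of 154.6 at which probe sets were filtered. It was not tested without control 1 and did not pass with no filter (limma adjusted p = 0.0584).

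Barhl2 has 1 probe set, 1437555_at, with 408.3 and 316.5 in controls and 198.8 and 171.4 in knockouts. The knockout mean was 51.1% of the control mean, and the log2 change was -0.90 ± 0.23 (SE; 95% interval -1.42 to -0.39; limma adjusted p = 0.0188). The groups did not overlap, yet the call held only with all 4 arrays or without control 2 (-1.08). It was lost without control 1 (-0.73, limma adjusted p = 0.103), knockout 1 (-1.0, adjusted p = 0.0692) or knockout 2 (-0.81, adjusted p = 0.107).

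The 2 Otx genes gave different readings. Otx2, which maintains forebrain and midbrain identity and meets Gbx2 at the midbrain-hindbrain border, read 3783 and 3362 in controls and 2548 and 2462 in knockouts at 1425926_a_at. Both knockout arrays were close together and below the controls, with a log2 change of -0.51 ± 0.10 (SE; 95% interval -0.73 to -0.28; limma adjusted p = 0.00548), the smallest of the 9 falls. The change was -0.59 to -0.42 with each array left out and passed each time. Otx1, its paralog, read 1089 and 715.2 in controls and 1268 and 579.2 in knockouts at 1437601_at. The knockout arrays held both the highest and the lowest value, and replicate 1 was above replicate 2 in both groups. The log2 change of Otx1 was -0.04 ± 0.31 (SE; limma adjusted p = 0.943), with a 95% interval of -0.72 to 0.64 that also holds the change of Otx2. The sign of the Otx1 change turned without control 1 (0.26) and without knockout 2 (0.51), and under median centring (0.0011). Whether Otx1 and Otx2 differ in their change was not tested.

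Irx1 and Irx2, neighbouring Iroquois genes of 1 cluster, fell by 1.87-fold and 1.84-fold. Irx1 at 1451983_at read 1101 and 990.3 in controls and 508.0 and 600.3 in knockouts, and the log2 change was -0.90 ± 0.15 (SE; 95% interval -1.23 to -0.57; limma adjusted p = 0.00222). Irx2 at 1426298_at read 1385 and 1241 against 768.2 and 645.0, with a change of -0.88 ± 0.14 (SE; 95% interval -1.20 to -0.57; limma adjusted p = 0.00186). Groups were apart for both genes, and both passed with any 1 array left out, at -1.02 to -0.78 for Irx1 and -1.01 to -0.76 for Irx2.

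**Figure D2:**
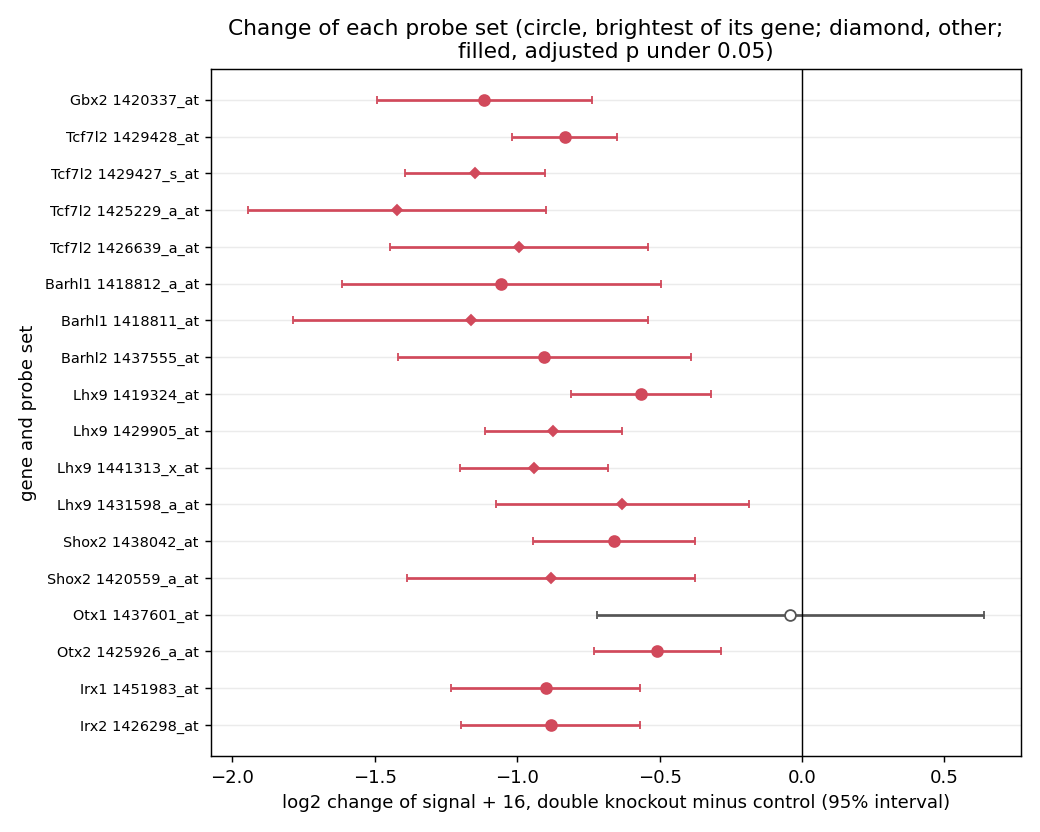
Log2 change of signal + 16, double knockout minus control (x axis), with its 95% interval from limma (bars), for the 18 probe sets (y axis). Circles are the brightest probe set of a gene, diamonds the others, and filled symbols have an adjusted p under 0.05: 17 symbols are filled and left of 0, and Otx1 is open at -0.04.

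Read at their brightest probe sets, 7 of the 9 genes fell by at least 1.5-fold (5.29% of all genes did). Of these, 2, Gbx2 and Barhl1, fell by at least 2-fold (1.38%). Tcf7l2 and Lhx9 fell by 1.78-fold and 1.48-fold there, and by up to 2.68-fold and 1.92-fold at their other probe sets. The counts by gene moved with the arrays used. Without knockout 2, 4 genes passed with a fall of at least 1.5-fold and only Irx1 reached 2-fold. There were 3 past 2-fold without knockout 1 (Gbx2, Barhl1 and Irx2) and 3 without control 2 (Gbx2, Barhl1 and Barhl2), and 2 without control 1. Barhl2, Irx1 and Irx2, at -0.90, -0.90 and -0.88, lay within 1 SE of each other. The probe sets of a gene changed by -1.42 to -0.83 for Tcf7l2, -0.94 to -0.57 for Lhx9 and -0.88 to -0.66 for Shox2. With eBayes run without a variance trend, 5 of the 10 genes passed, and Barhl1, Lhx9, Shox2 and Otx2 had limma adjusted p of 0.0563 to 0.065. With no filter on low values, 7 passed, and Barhl1 and Barhl2 had limma adjusted p of 0.0592 and 0.0685. The share of all probe sets called fell too, from 23.2% to 11.5% without the trend and 9.59% with no filter.

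The knockout arrays differed from each other at these genes. Knockout 2 read lower than knockout 1 at 16 of the 18 probe sets (88.9%), against 50.0% of all those tested, the exceptions being Irx1 and Lhx9 at 1441313_x_at. Control 2 read lower than control 1 at 13 of the 18 (72.2%), against 53.0% of all. Probe sets of a gene share their RNA, so the 18 are not independent. Leaving out knockout 2 thus made most falls smaller, and 11 of the 18 probe sets then passed, against 16 without knockout 1, 13 of the 17 tested without control 1 and 17 without control 2. By gene the counts were 7, 8, 8 and 9. The share of all probe sets called moved as well, from 23.2% to 13.0% without knockout 2 and 11.6% without knockout 1.

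**Figure D3:**
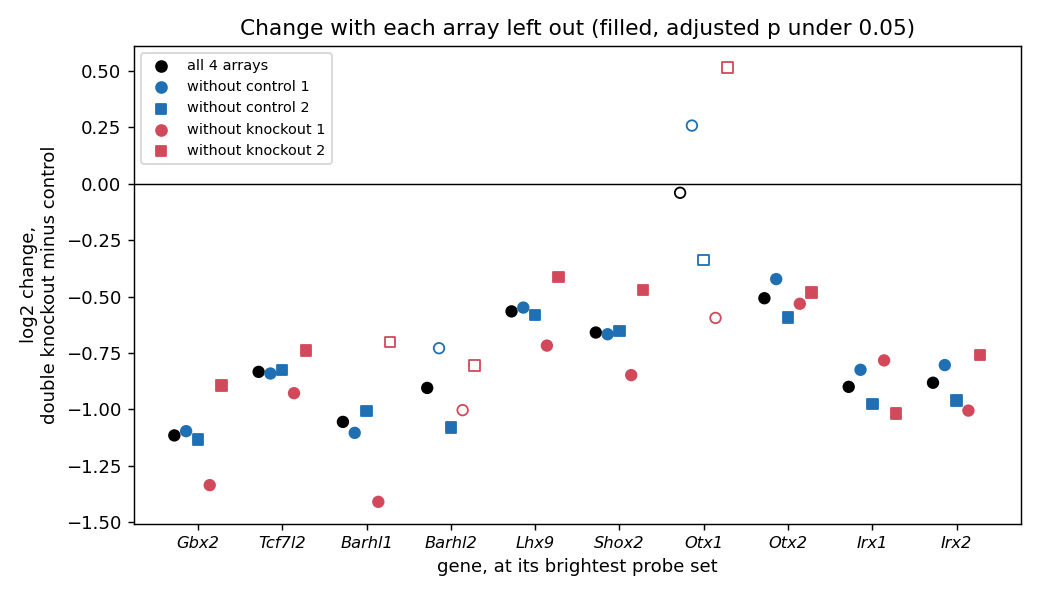
Log2 change of the 10 genes at their brightest probe sets (y axis, double knockout minus control) with all 4 arrays (black) and with each array left out (blue circles and squares for control 1 and 2, red circles and squares for knockout 1 and 2), filled where the adjusted p is under 0.05. Gbx2, Tcf7l2, Lhx9, Shox2, Otx2, Irx1 and Irx2 are filled throughout, Barhl1 is open without knockout 2, and Otx1 lies on either side of 0.

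Of the families of these factors, 7 other genes were bright enough to be tested out of 13 listed. Of the 7, 4 fell, 1 rose and 2 did not pass, where 11.0% of all genes fell and 16.3% rose. Their median log2 change was -0.39. Gbx1, the paralog of Gbx2, changed by -1.24, Irx5 by -0.75, Lef1, a Wnt effector like Tcf7l2, by -0.65, and Irx3 by -0.39. Lhx2, the paralog of Lhx9, rose by 0.87. The number that fell was 2 without knockout 1, where Gbx1 was at -0.75 and Irx3 at -0.42, and 2 without knockout 2, where Lef1 was at -0.44 and Irx3 at -0.35. Irx3 also did not pass without control 2 (-0.34).

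Other regulators and markers of the thalamus did not move as 1 group. Of 15 tested, 5 fell, 4 rose and 6 did not pass, with a median log2 change of 0.13, where 11.0% of all genes fell and 16.3% rose. Foxp2, a forkhead factor of thalamic and other neurons, changed by -1.52, Ntng1, a netrin-G adhesion molecule of thalamic axons, by -0.90, and Prox1, a homeodomain factor, by -0.90. Lhx2 stood at the other end with 0.87, followed by Slc17a6 (0.64, limma adjusted p = 0.000356), Cck (0.54) and Hs6st2 (0.34). Of the 4 that rose, only Slc17a6 passed with no variance trend. Prox1 did not pass without knockout 1 (-0.87) or knockout 2 (-0.92), and 2 genes rose without control 1 or without knockout 1.

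Of 20 genes listed for the pretectum and midbrain, 12 were tested. The counts were 10 lower, 1 higher and 1 that did not pass, and the median log2 change was -1.02. Over all genes tested, 11.0% fell and 16.3% rose, shares that also belong beside the lists below. The list was chosen with earlier results of these data known, and Meis1 is in the rhombic lip list as well. In RNA of a whole brain the counts do not place the falls in 1 region. Tfap2b, an AP-2 factor, changed by -1.70, Pax7, a paired-box factor of the dorsal midbrain, by -1.42, and the early B-cell factors Ebf1 and Ebf3 by -1.41 and -1.37. Tal2, a bHLH factor of midbrain GABAergic neurons, rose by 0.71, a call that was lost when control 1 (0.65), knockout 1 (0.56) or knockout 2 (0.86) was left out. With each array left out, 8 to 10 of the list fell.

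Prethalamic and rostral thalamic regulators fell in 9 of 15 cases, while 1 rose and 5 did not pass, and their median was -0.48. The number that fell was 6 without control 1, knockout 1 or knockout 2 and 8 without control 2. Gata3, a zinc finger factor of GABAergic neurons, changed by -2.18, the LIM-homeodomain factors Lhx1 and Lhx5 by -1.0 and -0.96, and Nkx2-2, a homeodomain factor next to the zona limitans, by -0.79. The Nkx2-2 call depended on control 1 (-0.60 without it), knockout 1 (-0.76) and knockout 2 (-0.82). Pax6, a paired-box factor of progenitors, rose by 0.44, and did not pass without control 2 (0.36) or knockout 1 (0.39).

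The habenular and pineal list had 4 of 10 genes that fell, 2 that rose and 4 that did not pass, and its median log2 change was -0.08. Nr4a2, an orphan nuclear receptor, changed by -1.10, Pou4f1, a POU factor that defines habenular neurons, by -0.93, Nhlh2, a bHLH factor of young neurons, by -0.83, and Rgs8, a regulator of G protein signalling, by -0.64. Those that rose were Pax6 and Neurod1, the latter by 0.28 and not with any array left out (0.23 to 0.34).

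Signals that pattern the diencephalon mostly did not pass where they were tested. Of 16 listed ligands and readouts of the zona limitans, roof plate and midbrain-hindbrain organizer, 10 were tested. Among these Fgf15 fell (-1.36), Wnt7b rose (0.81) and 8 did not pass, and the median log2 change was 0.26. Of 18 listed genes that Wnt signalling induces through Tcf and Lef factors, 13 were tested. Of the 13, 3 fell, 1 rose and 9 did not pass, with a median of 0.03. Sp5, a zinc finger factor, changed by -1.19, Lgr5, an R-spondin receptor, by -0.76, Lef1 by -0.65, and Apcdd1, a Wnt inhibitor, rose by 0.41. The Lgr5 call was lost with any array left out (-0.80 to -0.73), and without knockout 2 only Sp5 of the list fell. With no variance trend, 1 gene fell in the list of paralogs and Lhx2 did not pass (limma adjusted p = 0.059), 4 fell and 1 rose in the thalamic list, 9 fell in the pretectal and midbrain list, 6 in the prethalamic and 4 in the habenular list.

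**Figure D4:**
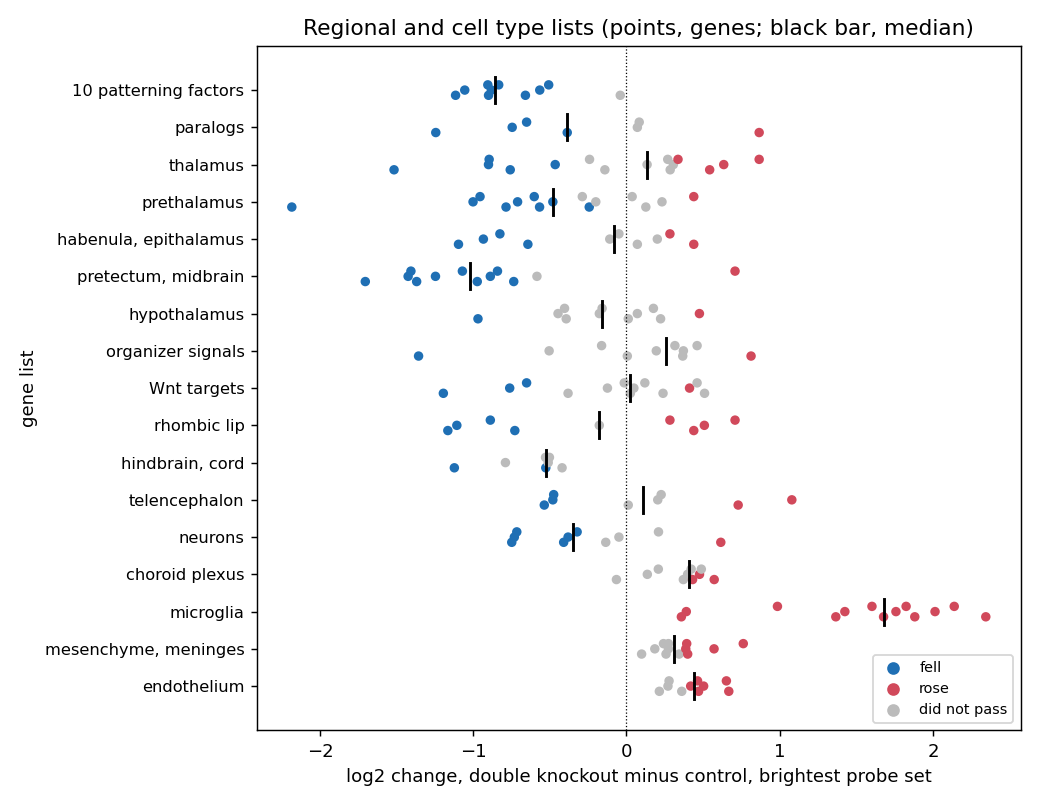
Log2 change at the brightest probe set, double knockout minus control (x axis), of the genes in each list (y axis), with blue points for genes that fell, red for genes that rose, grey for those that did not pass, and a black bar at the median. The 10 factors have a median of -0.86, the pretectal and midbrain list -1.02, the thalamic list 0.13 and the microglial list 1.68.

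Markers of other cell types moved as well. Pan-neuronal markers fell at 6 of 10 genes and rose at 1, with a median log2 change of -0.35 and summed signals of 142280 and 147800 in controls against 120640 and 116020 in knockouts. Tubb3, Dcx and Elavl3 changed by -0.75, -0.73 and -0.72, and Snap25 rose by 0.62. Microglial and macrophage markers rose at 13 of 13 (10 to 12 with an array left out), with a median of 1.68 and summed signals of 10395 and 11262 against 32567 and 30927. Mpeg1 changed by 2.35, and the complement genes C1qa, C1qb and C1qc by 2.14, 2.01 and 1.88. Mesenchymal and meningeal markers rose at 5 of 12 (3 without knockout 2), and their sums were 31680 and 32377 against 41010 and 43284. Among them Postn changed by 0.76 (0.59 without knockout 2, not passed), Islr by 0.57, and the collagen genes Col1a2 and Col3a1 by 0.40 and 0.39. Endothelial markers rose at 6 of 10, with sums of 8317 and 9411 against 12476 and 11892, but at 1 gene or none when control 1, knockout 1 or knockout 2 was left out. Egfl7, Tek, Cdh5 and Kdr, at 0.67, 0.65, 0.50 and 0.47, each lost the call with at least 1 array left out. Choroid plexus markers, relevant to Otx2, rose at 3 of 10, and at fewer without either knockout array. Their sums were 45143 and 44725 against 52766 and 49432. Most of each sum was Ttr, which defines this epithelium, at 38107.5 and 38225.7 against 43852.1 and 40127.3. Ttr itself did not pass (log2 change 0.14). Folr1, Clic6 and Kcne2, at 0.57, 0.48 and 0.43, did not pass without knockout 2, nor did Kcne2 with any of the other arrays left out or Folr1 without knockout 1. The sums hold every listed marker on the array, also those not tested. No marker of these lists was listed at 0 on any array. With no variance trend 3 neuronal markers fell, and 11 microglial, 2 mesenchymal, 1 endothelial and 1 choroid plexus marker rose. The part of these shifts in the falls of the patterning factors was not tested.

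The genes whose pattern over the 4 arrays lay nearest to that of Gbx2 were Lpin1, a phosphatidate phosphatase, Sema3f, a secreted guidance molecule, Coch, a secreted protein of the cochlea, Igsf9, an adhesion molecule of the immunoglobulin family, and Cilk1, a kinase of the cilium. Likeness was the Euclidean distance of log2 values centred on the control mean, over 4 arrays and 12489 genes, and was 0.06 for Lpin1 and 0.08 for Sema3f, then 0.11 for each of the other 3. Lpin1 read 1380 and 1383 in controls and 711.4 and 531.9 in knockouts, close in proportion to Gbx2 on every array. The log2 changes of the 5 were -1.15 to -1.06, and Coch did not pass without knockout 2 (-0.93). The knockout signals of Coch (137.2 and 97.8) were under the filter on low values, and it was not tested without control 2. A distance over 4 arrays in 2 groups says nothing of shared function or control.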

How the data were processed

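Groups and replicate numbers came from the sample titles. The authors deposited linear probe set intensity values, made with MAS5 5.0 per the submitters' processing notes; trimmed means were equal across arrays, so a shift of most transcripts would have been scaled away. No genome build was needed for probe set values, and none is named in those notes. Of 45101 probe sets, 64 controls were left out. Symbols came from the platform annotation (34945 probe sets with 1 symbol, 932 with several, 9160 with none), and all 10 genes matched the RefSeq table by gene ID.

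Values were log2(signal + 16), a scale that shrinks the changes of dim probe sets. Those with a mean above the 40th percentile (signal 154.6) were kept, 27022 in all, including all 18 studied. Knockout minus control was fitted with limma 3.58.1 in R 4.3.3 (lmFit, eBayes with trend, Benjamini-Hochberg). There were 2 residual degrees of freedom and 8.33 prior ones, so most of the weight in each variance came from other probe sets. A gene took its brightest probe set. The steps were tested on simulated data. From each list the up to 4 called genes with the largest changes were named, with Sox4 and Sox11 at their brightest probe sets and the 5 genes nearest to Gbx2. Irx3, Neurod1, Slc17a6, Cck, Hs6st2, Tal2, Nhlh1, Cntn2, Pax6 and Ttr were chosen after their values were seen. So were genes named in other contexts to complete a small count. The members and lists were chosen with earlier results of these data known. Counts of a list are over its tested genes, and listed genes under the filter or not on the array are left out of them. Alternatives were quantile normalization, median centring, other pseudocounts and filters, eBayes without trend or robust, each array left out, a replicate block and averaged probe sets.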

Additional observations from a re-analysis of the deposited data

How the results depend on the processing

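Of the 9 genes that fell, all kept their direction under every alternative that tested them, and Gbx2, Tcf7l2, Irx1 and Irx2 passed under all 14. Without the variance trend 3114 probe sets were called instead of 6277, 11 of the 18 member probe sets instead of 17, and 5 member genes instead of 9, with Barhl1, Lhx9, Shox2 and Otx2 at adjusted p of 0.0563 to 0.065; list genes called were 58 instead of 93. With an array left out, all calls ranged from 3132 to 5422, member probe sets from 11 to 17, member genes from 7 to 9 and list genes from 64 to 83. The Otx1 change was 0.0011 with median centring and -0.59 to 0.51 with an array left out. Without a filter 7 genes passed, Barhl1 and Barhl2 having limma adjusted p of 0.0592 and 0.0685, and 9.59% of all probe sets were called. The filter at the 60th percentile left Barhl1 and Barhl2 untested. The numbers do not pair the arrays (correlation of deviations 0.0028 for arrays of the same number); the replicate block called 17 member probe sets, 9 member genes and 6844 probe sets in all. The cause of these shifts was not tested. With an array left out, the lone array of its group is assumed to vary like the other group.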

Other observations

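Genes of the rhombic lip, where Barhl1 also acts, gave 4 of 9 that fell and 4 that rose. Mab21l1 (log2 change -1.17), Atoh1 (-1.11), Meis1 (-0.89) and Zic2 (-0.73), regulators of early hindbrain and granule cell development, fell, and Nhlh1 (0.71), Cntn2 (0.51), Pax6 (0.44) and Neurod1 (0.28), genes of progenitors and young neurons, rose. The Atoh1 signals were 355.2 and 224.4 in controls and 121.4 and 124.0 in knockouts, the latter under the filter on low values (154.6), and it was not tested without control 1. With no variance trend 4 genes of the list fell and 0 rose in limma (3 rose at an unadjusted p under 0.05), and with no filter 3 fell and 1 rose. Without knockout 1 the list had 2 that fell, with Atoh1 at -1.09 and Zic2 at -0.61 not past, and in limma 0 that rose (4 at an unadjusted p under 0.05). Without control 2 there were 4 and 1, and without knockout 2 there were 3 and 2, Atoh1 being at -1.12. Of 11 hypothalamic and mammillary genes tested out of 22 listed, Arnt2, a partner of Sim1, fell (-0.97), Fezf2, a zinc finger factor of forebrain, rose (0.48) and 9 did not pass, with 3 that fell without control 2 and 2 without knockout 2. Telencephalic regulators gave 3 of 8 that fell, among them Bcl11b (-0.54) and Lhx6 (-0.48), and 2 that rose, Eomes (1.08) and Emx1 (0.73). Lhx6 did not pass without control 1 (-0.38) or knockout 2 (-0.34), nor Emx1 without knockout 1 (0.67), and 2 genes of this list fell without control 1 or knockout 2. Hoxb3 (-1.12) and Hoxa5 (-0.53), position markers of hindbrain and cord, fell out of 7 tested, and Hoxa5 did not pass without control 2 (-0.42) or knockout 1 (-0.38), while 3 genes of the list fell without control 1 and 1 without control 2 or knockout 1. Of 5 red cell markers 0 passed in limma, with 1 at an unadjusted p under 0.05, and of 3 tested eye markers Dct, a pigment cell enzyme, rose (1.5).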
